A study of Paralichthys olivaceus with 24 samples.

Results

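Skeletal muscle of olive flounder (Paralichthys olivaceus), a farmed flatfish, was compared between water at 23 °C and water at 18 °C, the middle step of a warming series. The comparison covers every row of the deposited table whose mean over these libraries was at least 1 RPKM, which is 3906 of 11646 rows. RPKM scales the reads of a gene by transcript length and by the size of the library. Within them, 225 rows were set apart because their value at 18 °C was at least 5 times both the 12 °C and the 23 °C value, and 3681 were not. The labels describe 24 samples of gill, liver and muscle, of which the 4 muscle samples of series C have values here, and the other 20 were not analysed here. The fish were 9 months old and first kept at 12 °C, as 120 animals in 8 treatment groups with 15 fish each. The acute fish moved through warmer tanks every 3 h, while the chronic fish were warmed at 3 °C per h and then stayed at the final temperature for 20 h or more. No label spells out that series C is the chronic regime. All 4 groups share age and the 12 °C acclimation, and no genotype is given. The design mentions duplicates, but each temperature has 1 column of values, and no source says how many fish stand behind it. Each column is treated as a library, so no value below has an error and no difference has a test.

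Fish do not regulate their body temperature, so the muscle of a flounder warms with the water around it. In warmed cells heat shock factors switch on chaperone genes, whose products hold, fold or clear proteins that lose their shape. Muscle depends on such factors also for building myosin filaments, and its protein and amino acid turnover is known to respond to stress hormones such as cortisol. Folds are given as log2((RPKM at 23 °C + 1)/(RPKM at 18 °C + 1)), and a gene is called higher or lower from a 2-fold difference on this scale. Where 4 values follow a gene they are RPKM at 12, 18, 23 and 28 °C in that order.

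Most members differed little between 18 and 23 °C. Of the 3906 members, 29 (0.742%) were higher by this rule at 23 °C and 352 (9.01%) were lower, and all 225 rows set apart are among the lower ones. Without these rows 29 of 3681 (0.788%) were higher and 127 (3.45%) lower, so 18.6% of the calls were higher. The middle 90% of these rows lay between log2 folds of -0.89 and 0.54 around a median of -0.15. That median depends on the scale. Median ratios over the 8508 rows above 0 in every library raise all 23 °C values against 18 °C by 0.35 on the log2 scale, and the constants in the authors' own comparison columns raise them by 0.43. The calls without the rows set apart then became 96 higher and 74 lower (56.5% higher) with median ratios, and 129 higher and 67 lower (65.8% higher) with the authors' constants. All 29 higher genes remained higher under both scalings, while 74 and 67 of the 127 lower genes remained lower. Both scalings only raise 23 °C values against 18 °C, so no higher call could be lost, and nothing is read from this difference. Over all 3906 members, which include the rows set apart, lower calls stayed more numerous, at 297 against 96 with median ratios and 291 against 129 with the authors' constants. Without those rows the larger direction turned with the scaling. Gene lists are therefore described against the median of the 3681 rows, above and below which 50% of them lie. Each scaling shifts all 23 °C values by the same factor, and this median moves with them. List counts above and below it thus hardly change by construction, and their agreement between scalings is no support.

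The table itself was selected: all 11646 rows carry an authors' value at least 2-fold away from 12 °C at some temperature, so genes without such a difference are not among the members. Absolute depth is unknown, because the table holds no counts. Among 1424 rows above 0 but under 0.1 RPKM in both libraries, 232 shared the most frequent ratio between the libraries. If these rows hold equal read counts in both, the 23 °C library had 0.978 times the depth of the 18 °C library. That assumption was not tested. Muscle identity was visible in both libraries. Parvalbumin (pvalb1), the calcium buffer of fast fish muscle, was at 6441, 5153, 4481 and 2336 RPKM, and the Z-disc gene ldb3b at 500.7, 515.8, 397.7 and 257.4 RPKM. Both were chosen as checks after their values were seen, and their folds of -0.20 and -0.37 changed sign, for pvalb1 under both scalings and for ldb3b with the authors' constants. Another pair of abundant muscle genes has a 0 in 1 library. The fast myosin regulatory light chain mylpf is listed at 0 at 18 °C, between 25770 RPKM at 12 °C and 25861 at 23 °C, with 20633 at 28 °C. The sarcoplasmic calcium pump atp2a1l is listed at 0 at 23 °C, while its other libraries held 15859, 15287 and 14940 RPKM. No fold is given for such rows, although they count among the calls, and 7 members are listed at 0 at 18 °C and 27 at 23 °C.

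**Figure D1:**
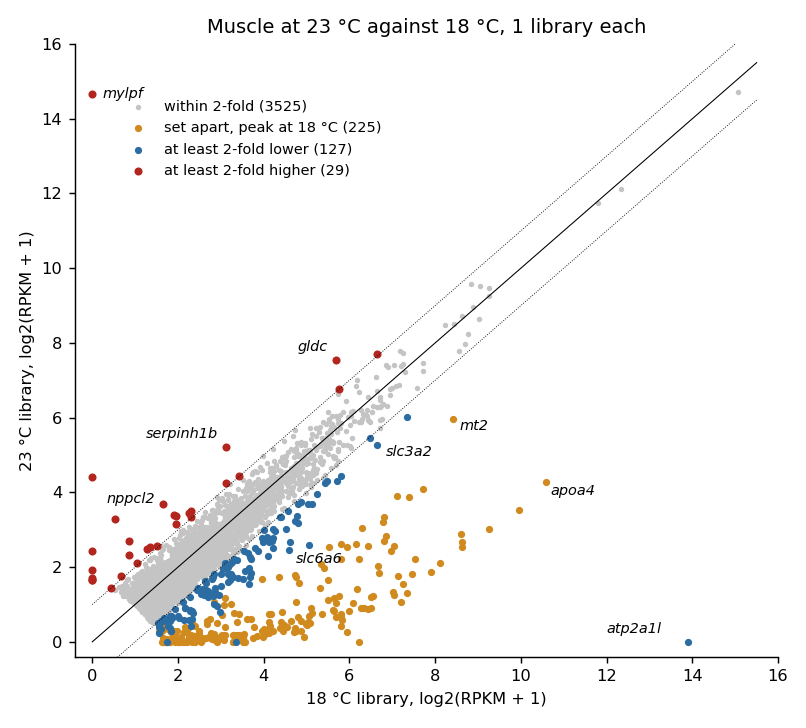
RPKM + 1 on a log2 scale in the 18 °C library (x axis) and the 23 °C library (y axis) for the 3906 members. The solid line marks equal values and the dotted lines 2-fold. The 225 rows set apart (ochre) lie far below the line, the 127 other lower genes (blue) and the 29 higher genes (red) lie beyond the dotted lines, and mylpf and atp2a1l sit on an axis because they are listed at 0 in 1 library.

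The largest group of lower genes had a peak at 18 °C, and many of them are genes of liver and pancreas. Of the 225 rows, 122 have a symbol, and 65 stand on the liver, pancreas or complement lists. Their medians were 0.235, 10.5, 0.250 and 1.42 RPKM at the 4 temperatures. They held 0.226%, 11.1%, 0.365% and 1.11% of the members' summed RPKM at these temperatures. Their median log2 fold from 18 to 23 °C was -3.20, a value that the choice of the rows fixes, and nothing is read from it.

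Plasma lipoproteins led the peak. The apolipoprotein gene apoa4 was at 14.0, 1544, 18.3 and 133.6 RPKM, and apoa2 at 9.67, 991.3, 10.5 and 78.1 RPKM. The smaller apolipoprotein apoc1 followed the same course, at 5.07, 387.4, 6.44 and 42.0 RPKM. All 3 were back near their 12 °C level at 23 °C and higher again at 28 °C. Plasma carriers behaved alike: the iron carrier transferrin (tfa) was at 4.92, 395.9, 5.34 and 47.4 RPKM, and ahsg1, a fetuin of the plasma, at 3.70, 395.2, 4.85 and 31.4 RPKM. The haem-binding hemopexin hpxb was at 2.52, 175.9, 2.54 and 25.3 RPKM, and the protease inhibitor precursor ambp at 1.87, 162.3, 1.45 and 15.2 RPKM. Clotting genes belong to the same group, with the fibrinogen chains fgb at 2.85, 184.6, 3.68 and 29.5 RPKM and fgg at 1.35, 152.2, 1.90 and 17.1 RPKM.

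Of the 71 rows on a list of hepatocyte genes, 59 met the minimum, 58 of these were at least 2-fold lower at 23 °C and 55 were set apart. Over all 3906 members 9.01% were lower and 225 were set apart. Most of the liver rows met the minimum only through their 18 °C value, which the rule for rows set apart also read. These counts, and the pancreas count below, therefore follow largely from the choice of rows, and nothing is read from them. The summed level of the list was 92.2, 5831, 91.96 and 644.9 RPKM, and 19, 60, 20 and 41 of the rows reached 1 RPKM. At 18 °C no row of the list was at 0, against 8 at 12 °C and 5 at 23 °C. Digestive enzymes of the exocrine pancreas peaked too. All 6 pancreas rows that met the minimum were set apart, with the carboxypeptidase cpb1 at 3.42, 54.9, 5.097 and 14.8 RPKM, the elastase ela3l at 5.08, 70.3, 5.19 and 13.4 RPKM and the trypsin gene prss1 at 0.458, 25.8, 1.11 and 3.67 RPKM. Their list summed to 15.6, 248.6, 20.5 and 55.5 RPKM. Neither tissue is part of skeletal muscle, and where the RNA of these genes came from was not tested. In a bulk sample, fewer cells of a type and less RNA per cell cannot be told apart.

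The 28 °C values, which the rule did not read, are given as a description, since the share below is taken from the 12 and 18 °C values that chose the rows. Of the excess of 18 over 12 °C, a median of 10.3% was present at 28 °C (quartiles 7.84% and 14.2%), and 4 rows were below their 12 °C value. The share was 9.65% for the 55 liver rows, 17.7% for the 6 pancreas rows and 10.7% for the 50 rows with a symbol on no list. In the authors' deposited table, 224 of the 225 rows are in cluster 1 and 1 is in cluster 4. Cluster 1 holds 352 of the 3906 members.

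Genes known from other contexts stand among the rows set apart. The metal-binding metallothionein mt2 was at 46.9, 339.9, 61.3 and 63.6 RPKM, the tyrosine-degrading enzyme tat at 0.0814, 8.82, 0.133 and 0.900 RPKM, and pck2, a gluconeogenic enzyme, at 0.141, 4.05, 0.418 and 0.625 RPKM. These 3 stand on the list of glucocorticoid (cortisol) response genes, and tat stands on the liver list too. The growth factor igf1 was at 0.159, 2.40, 0.270 and 0.260 RPKM, and its binding protein igfbp2a at 0.225, 5.35, 0.459 and 1.06 RPKM. The mitochondrial carrier ucp1 was at 0.122, 25, 0.199 and 1.92 RPKM. Liver or fat cells also express these genes, and their level in muscle fibres cannot be told apart from that in other cells. The lipogenic regulator thrsp, at 73.7 RPKM at 18 °C, is listed at 0 at 23 °C, as are apom and nme4.

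The limit of 5 times cuts through a continuum. Just inside it lie nmnat3, bmp1a and mt2, whose 18 °C values were 5.1, 5.52 and 5.54 times the higher of the 12 and 23 °C values. Just outside it lie qsox1 (4.96 times), pnp4b (4.94 times) and ncoa7 (4.84 times), which stay among the lower genes below. The minimum of 1 RPKM falls between pnkp, spata20 and r3hcc1l inside and nup85, slc25a17 and cdc42se1 outside. At 3 times, 256 rows would be set apart, and at 10 times 202.

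**Figure D2:**
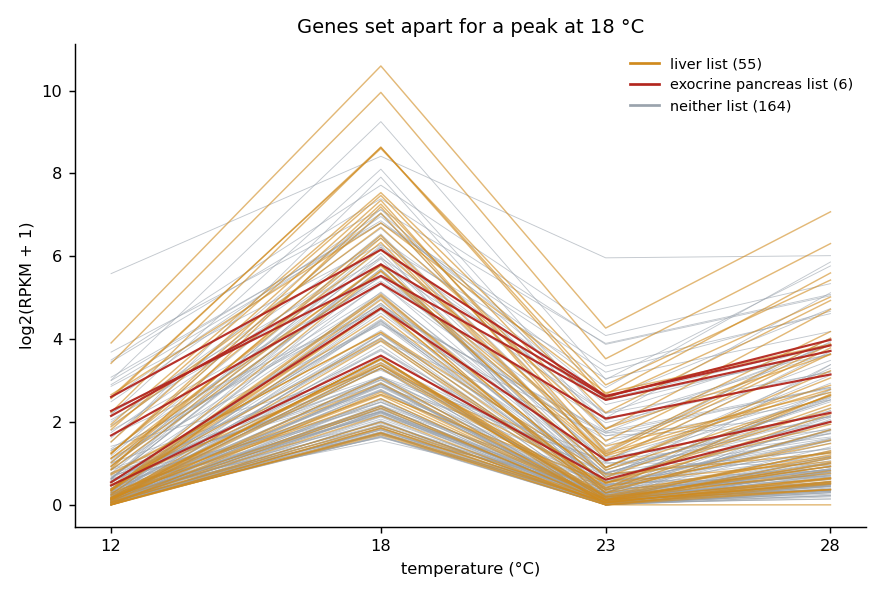
Each line is 1 of the 225 rows set apart, with temperature on the x axis and log2(RPKM + 1) on the y axis, coloured by the liver list (55 rows), the exocrine pancreas list (6 rows) or neither (164 rows). By the rule every line is lower at 12 and 23 °C than at 18 °C, and the medians of the 225 rows were 0.235, 10.5, 0.250 and 1.42 RPKM at the 4 temperatures.

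Genes of collagen folding were among the 29 higher at 23 °C. The gene serpinh1b encodes Hsp47, the collagen-specific chaperone of the endoplasmic reticulum, and was at 1.74, 7.73, 36 and 168.6 RPKM. Its level at 23 °C was 4.66 times that at 18 °C (log2 fold 2.08), the largest fold among named genes with a mean of at least 5 RPKM and values above 0, and it was higher at each warmer temperature. The same stepwise course held for p4ha2, a subunit of the enzyme that hydroxylates prolines in new collagen, at 1.82, 3.77, 9.88 and 83.3 RPKM (1.19). The sister subunit p4ha1 was at 2.69, 3.70, 6.38 and 41.0 RPKM (0.65), short of 2-fold as deposited. The lysyl hydroxylases plod1 and plod3, which prepare collagen for crosslinking, were at 7.06, 8.74, 14.1 and 50.5 RPKM (0.63) and at 4.58, 6.60, 10.4 and 294.7 RPKM (0.58), and both were picked after their values were seen. With the authors' constants p4ha1 (1.02) and plod1 (1.03) passed 2-fold and plod3 (0.98) did not, while with median ratios none of them did. The list of collagen and its maturation was nevertheless mixed. Of its 12 members 2 were higher as deposited, against 0.788% of all rows not set apart, and 0 lower. Above the member median lay 7 and below it 5, and the prolyl isomerase ppib, at 27.0, 49.3, 30.1 and 61.9 RPKM (-0.69), went the other way.

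Heat shock chaperones and cochaperones lay mostly above the member median, but only hsp90aa1.1 and serpinh1b were higher by 2-fold as deposited. The chaperone hsp90aa1.1, which in zebrafish muscle folds myosin, was at 21.1, 53.2, 108.0 and 4188 RPKM (log2 fold 1.01). The stress-inducible hsp70 chaperone hspa1b was at 1.68, 8.33, 17.6 and 5326 RPKM, and its log2 fold of 0.99 missed 2-fold as deposited but passed it under both scalings (1.32 and 1.40). Reads of these genes may be shared with near-identical copies, so their levels are uncertain. Partners of both chaperones, picked after their values were seen, stood at folds below 2 as deposited: hspa4a at 3.84, 7.32, 12.8 and 390.5 RPKM (0.73), ahsa1 at 12.5, 13.3, 22.5 and 387.1 RPKM (0.72), stip1 at 14.0, 15.9, 26.6 and 150.1 RPKM (0.71) and hspbp1 at 1.78, 2.46, 4.49 and 464.3 RPKM (0.67). The first 3 passed 2-fold under both scalings and hspbp1 (1.02) with the authors' constants. Of 35 heat shock chaperones and cochaperones, 29 lay above the member median and 6 below (30 and 5 under both scalings), with a median of 0.21. The 2 higher members, against 0.788% of all rows not set apart, were hsp90aa1.1 and serpinh1b, which is counted under collagen too. The 1 lower member was the small heat shock protein gene hspb9, at 21.2, 22.8, 10.4 and 88.3 RPKM (-1.07), and it fell short of 2-fold under both scalings (-0.74 and -0.66). The summed level of the list was 841.1, 934.3, 967.4 and 21022 RPKM, so its largest difference by far lay between 23 and 28 °C.

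Folding factors of the endoplasmic reticulum stood similarly. The genes dnajc3 and dnajc3b stand on this list and on that of heat shock chaperones, so these counts are not separate. Of 34 members 28 lay above the member median and 6 below (27 and 7 with median ratios), around a median of 0.10, and none passed 2-fold as deposited, while ddit3 did under both scalings (1.04 and 1.12) and xbp1 with the authors' constants (1.05). The stress regulator ddit3 was at 6.01, 5.94, 10.5 and 30.8 RPKM (0.73), xbp1, which drives secretory genes, at 14.4, 14.6, 23.2 and 61.3 RPKM (0.63), and sdf2l1, a lumenal chaperone partner, at 1.72, 1.44, 2.90 and 9.63 RPKM (0.68). The calcium-binding lumenal protein rcn3 was at 1.84, 16.3, 8.25 and 18.0 RPKM (-0.90), the lowest fold of this list. Factors of myosin folding and sarcomere assembly divided evenly, with 6 of 12 above the median and 6 below (7 and 5 under both scalings). Their methyltransferase smyd1 was at 36.7, 42.7, 56.0 and 2429 RPKM (0.38).

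Other genes with positive folds took several courses, and those below a log2 fold of 1 are not among the 29. Some were lowest at 18 °C and highest at 28 °C. The glycine decarboxylase gldc, part of the mitochondrial glycine cleavage system, was at 87.5, 50.4, 184.0 and 368.3 RPKM (1.85). The kinase activator mob3a was at 11.8, 2.78, 9.57 and 80.8 RPKM (1.48), the transcriptional repressor bcl6ab at 5.80, 2.85, 9.25 and 62.1 RPKM (1.41) and the phosphatase regulator ppp1r27 at 7.86, 3.94, 10.3 and 36.8 RPKM (1.2). As deposited, the 23 °C value of mob3a was below that at 12 °C, while the authors' factor of 1.272 would put it slightly above. On both scales its 18 °C value was the lowest, so the difference rests largely on a low 18 °C value. The survival factor mcl1b of the Bcl2 family had this course at a higher level, 686.9, 457.0, 768.0 and 1655 RPKM (0.75). The bZIP repressor nfil3-6 returned to its 12 °C level, at 49.5, 25.7, 50.2 and 48.6 RPKM (0.94).

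Other genes had no low point at 18 °C. The trans-Golgi membrane protein tgoln2 was at 2.84, 2.86, 7.83 and 17.9 RPKM (1.19). The small GTPase arf4, which acts in Golgi traffic and was picked after its values were seen, was at 0.0677, 0.438, 8.70 and 22.5 RPKM (2.75). Both were highest at 28 °C. The calcium-binding growth regulator cgref1, likewise picked afterwards, was at 0.182, 0.818, 4.03 and 4.14 RPKM (1.47), and ppfibp1a, a scaffold of the liprin family, at 3.37, 6.52, 13.8 and 13.6 RPKM (0.98), so both were level between 23 and 28 °C.

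The last course peaked at 23 °C. The natriuretic peptide precursor nppcl2 was at 2.08, 2.16, 12.0 and 2.30 RPKM (2.04), high in 1 library alone. The enzyme pfkfb4b, which sets the level of a glycolytic activator, was at 7.72, 9.71, 20.7 and 3.49 RPKM (1.02), and the sugar phosphate enzyme pgm2l1 at 61.2, 52.3, 99.0 and 61.0 RPKM (0.91). Some contractile genes were likewise highest at 23 °C, at folds below 2. Of the slow and cardiac list, the myosin light chain myl2a was at 4.83, 7.92, 12.9 and 3.28 RPKM (0.64) and the tropomyosin tpm3 at 13.7, 22, 30.6 and 10.9 RPKM (0.46). Of the fast muscle list, the cardiac-type actin actc1a was at 106.3, 144.6, 219.9 and 125.5 RPKM (0.60), with reads possibly shared among actin copies, and the calcium pump atp2a1, picked afterwards, at 17.0, 23.9, 34.7 and 8.88 RPKM (0.52). Of 13 slow and cardiac contractile genes 10 lay above the member median and 3 below (11 and 2 with the authors' constants), with 1 higher, the peptide precursor nppcl2, and 1 lower. The lower member was the troponin gene tnnt2b, at 4.17, 11.6, 2.97 and 1.70 RPKM (-1.66). Of 9 genes on the fast muscle list 4 lay above and 5 below (6 and 3 under both scalings), 1 was higher and 2 lower. The genes mylpf and atp2a1l, both listed at 0 in 1 library, account for 2 of these calls. The other is the myosin-binding protein mybpc2a, at 1.83, 6.15, 1.40 and 1.39 RPKM (-1.57). Among the 5 below are the slow-type mybpc1 (-0.17) and acta2 (-0.37), also a marker of endothelium and pericytes, so the split is not of fast fibres alone. Over all rows not set apart 0.788% were higher and 3.45% lower, the shares to set beside the slow and fast muscle calls.

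**Figure D3:**
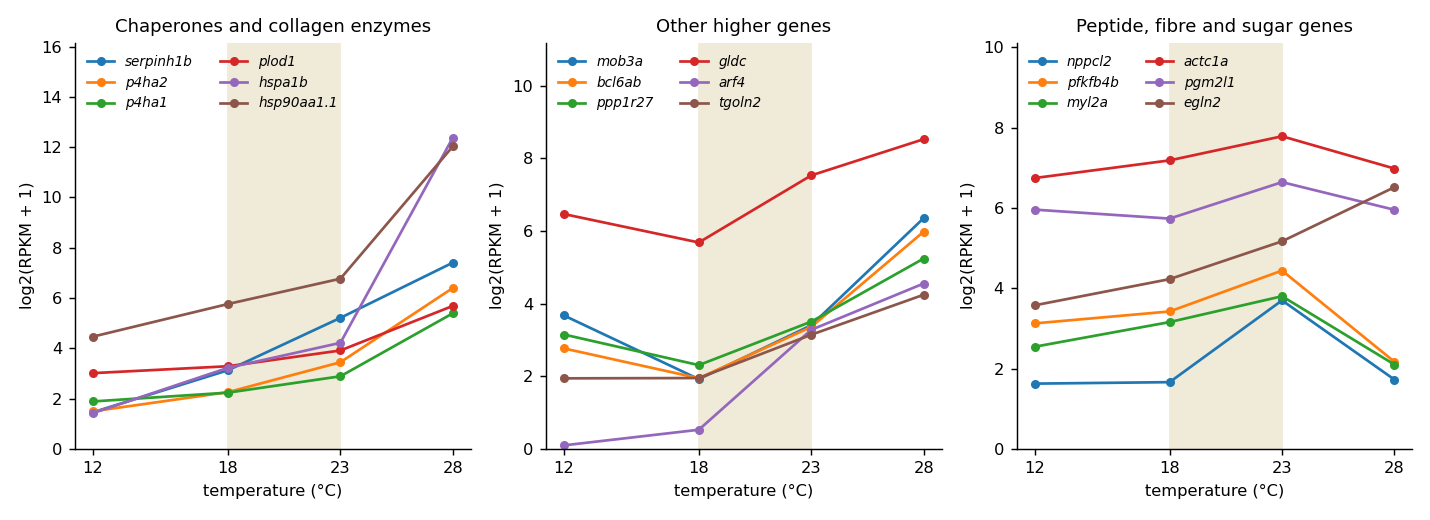
log2(RPKM + 1) at the 4 temperatures for 18 genes discussed as higher at 23 °C, with the compared step from 18 to 23 °C shaded and 1 library at each point. Left, chaperones and collagen enzymes climb further at 28 °C, up to 5326 RPKM for hspa1b. Middle, gldc, mob3a, bcl6ab and ppp1r27 dip at 18 °C, while arf4 and tgoln2 do not. Right, nppcl2, pfkfb4b, myl2a, actc1a and pgm2l1 peak at 23 °C and egln2 climbs on.

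Energy genes differed by pathway. Of 15 glycolysis and glycogen genes 11 lay above the member median and 4 below (12 and 3 under both scalings), with a median of 0.15. By 2-fold 1 was higher and 0 lower, against 0.788% and 3.45% of all rows not set apart. The aldolase aldoc was at 6.09, 6.58, 11.3 and 46.8 RPKM (0.70). Of 12 hypoxia genes 10 lay above the median and 2 below. The 2 higher calls, against 0.788% of all rows not set apart, were p4ha2 and pfkfb4b, and 0 were lower. The oxygen-sensing prolyl hydroxylases did not pass 2-fold as deposited, egln2 at 10.9, 17.7, 35 and 90.7 RPKM (0.94) and egln1, picked afterwards, at 26.9, 44.6, 70.18 and 48.05 RPKM (0.64). The hypoxia factor epas1 went the other way, at 3.27, 3.06, 1.29 and 2.29 RPKM (-0.83). The p4ha1, p4ha2 and pfkfb4b genes stand on this list too, so the hypoxia, collagen and glycolysis counts are not separate.

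Fat and pyruvate genes lay mostly below the member median. Of 8 genes of fatty acid uptake and oxidation 1 was lower by 2-fold, against 3.45% of all rows not set apart, and 0 higher. Of these genes 1 lay above the median and 7 below, around a median of -0.51. The lipid droplet protein plin2 was at 3.02, 5.62, 1.48 and 10.3 RPKM (-1.42) and cpt1b, which admits fatty acids to muscle mitochondria, at 14.0, 15.0, 7.16 and 2.89 RPKM (-0.97). Of 8 pyruvate dehydrogenase and citrate cycle genes 1 was lower, against the same 3.45%, and 0 higher. Above the median lay 1 and below it 7 (2 and 6 under both scalings), and their median of -0.21 was close to that of all rows. The inhibitory kinase pdk2a was at 15.8, 7.91, 2.54 and 1.72 RPKM (-1.33), and the citrate cycle gene sdhb at 4.74, 2.73, 5.76 and 24.2 RPKM (0.86). These calls depend on the scaling. The lower call of pdk2a was lost with the authors' constants (-0.997), while sdhb became higher by 2-fold under both scalings (1.14 and 1.22). Few respiratory chain genes are members: 3 of oxidative phosphorylation were not set apart, including cox6b1 of cytochrome oxidase at 11.3, 21.3, 40.1 and 80.4 RPKM (0.88) and the ADP carrier slc25a5 at 15.1, 28.0, 39.4 and 10.9 RPKM (0.48).

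Genes of amino acid handling lay mostly below the member median. Of 27 members, 6 were lower and 0 higher against 3.45% lower among all rows not set apart, and 6 lay above and 21 below the member median. Both figures for the median were the same under both scalings, which hardly move them by construction. Transporters led. The taurine transporter slc6a6 was at 26.4, 23.2, 4.54 and 1.90 RPKM, 5.098 times lower at 23 °C than at 18 °C (-2.12). The heavy chain slc3a2, which carries several amino acid exchangers to the membrane, was at 153.6, 99.5, 37.7 and 26.1 RPKM (-1.38). Both were thus lower at each warmer temperature. The glutamine carrier slc38a2 was at 7.07, 6.07, 1.47 and 7.56 RPKM (-1.52), low at 23 °C alone.

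Enzymes of glutamine and glycine followed. The glutaminase gls2, which breaks glutamine down, was at 9.48, 8.05, 2.04 and 0.840 RPKM (-1.58). The glutamine synthetase glula, which makes it, was at 72.1, 20.3, 9.20 and 14.6 RPKM (-1.06). Glycine N-methyltransferase (gnmt) was at 10.04, 17.3, 5.43 and 2.74 RPKM (-1.51), while the glycine-splitting gldc was higher, as above. The genes glula and slc3a2 were picked after their values were seen. With the authors' constants slc3a2 (-0.95) and glula (-0.66) no longer reached 2-fold, and with median ratios glula (-0.74) did not.

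Few targets of cortisol and clock genes passed 2-fold. Of 14 glucocorticoid response genes not set apart 3 were lower, against 3.45% of all such rows, and 0 higher, with 5 above and 9 below the median. The transcription factor klf9 was at 12.6, 8.33, 2.13 and 3.57 RPKM (-1.57). The clock repressor per1b was at 6.66, 4.46, 1.61 and 1.24 RPKM (-1.07), short of 2-fold under both scalings (-0.82 and -0.77), and glula, which loses the call likewise, makes up the count, so klf9 (-1.31 and -1.25) alone kept it. Of 16 clock genes per1b was the 1 lower call, close to the share over all rows, with 5 above and 11 below the median. Hour of sampling is not in the labels, and its part in these values was not tested.

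Muscle transcription factors and sarcomere genes gave smaller differences. Of 13 genes of the Z-disc, titin and sarcomere cytoskeleton none passed 2-fold, but 2 lay above and 11 below the median. These counts were the same under both scalings, which hardly move them by construction. The actin-binding synpo2la was at 89.3, 60.5, 37.5 and 12.3 RPKM (-0.67) and the giant-filament partner obsl1b at 8.07, 5.64, 3.13 and 0.939 RPKM (-0.69). Of 28 myogenic and muscle transcription factors 13 lay above and 15 below, with srfb at 4.23, 2.45, 0.794 and 0.862 RPKM (-0.94) and mef2c at 13.8, 7.68, 4.06 and 2.87 RPKM (-0.78). Calcium handling, with 13 members, split into 6 above and 7 below. The 7 below include atp2a1l, listed at 0 at 23 °C, which is also the 1 call of this list past 2-fold, against 3.45% lower among all rows not set apart. The excitation-contraction adaptor stac3 of this list was at 85.4, 63.9, 36.7 and 20.5 RPKM (-0.78). Of 20 channels and solute carriers of the fibre 5 lay above and 15 below (7 and 13 under both scalings). The water channel aqp4 of the fibre membrane was at 37.9, 40.6, 20.0 and 11.01 RPKM (-0.98).

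**Figure D4:**
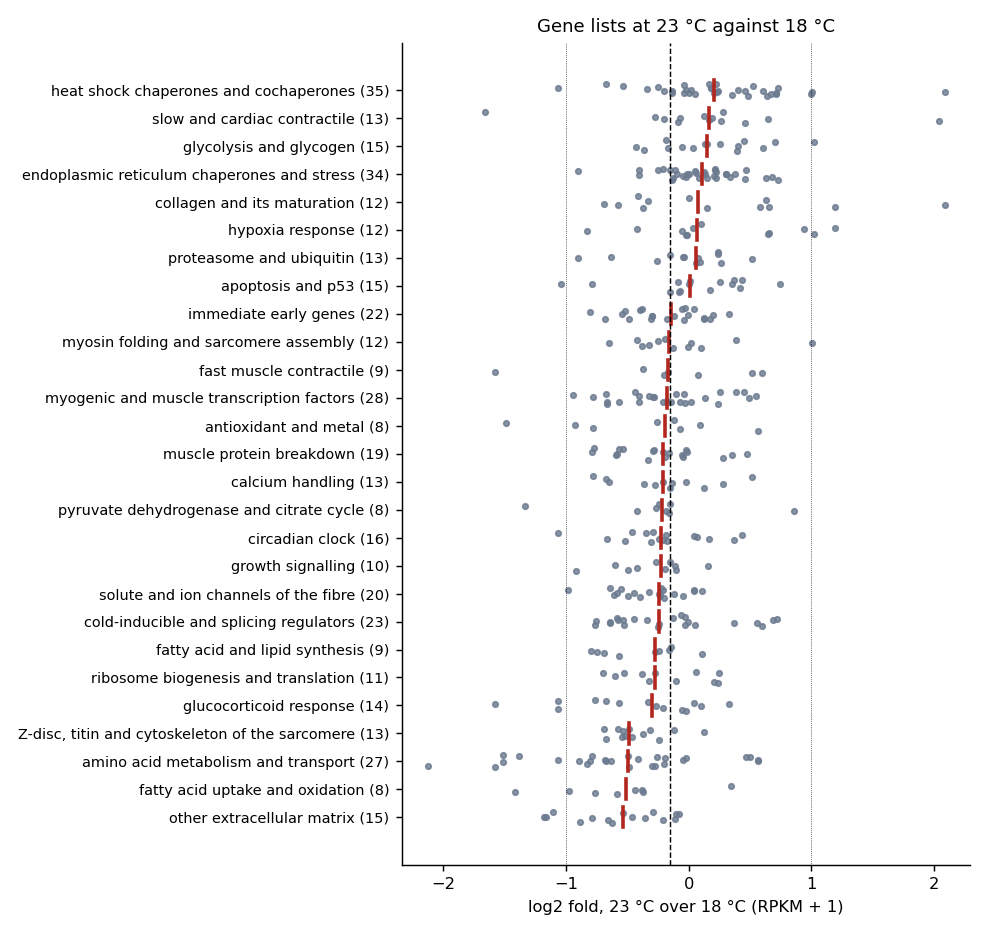
Log2 fold from 18 to 23 °C (x axis) of the members of 27 gene lists with 8 or more members not set apart, 1 point per gene, with the list median in red and the median of all 3681 rows as a dashed line at -0.15; rows listed at 0 in 1 library are not drawn. Heat shock, slow muscle, glycolysis and endoplasmic reticulum lists sit right of the dashed line, and extracellular matrix, fatty acid oxidation, amino acid and Z-disc lists sit left of it. The zero point itself moves with the scaling, by 0.35 or 0.43.

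Extracellular matrix genes other than collagen lay mostly below the member median. Of 15 members 3 were lower, against 3.45% of all rows not set apart, and 0 higher, and 3 lay above and 12 below the median under each scaling. The gelatinase mmp2 was at 34.2, 42.1, 18.0 and 12.2 RPKM (-1.18). The microfibril genes fbn1 and mfap5 were at 6.08, 8.04, 3.04 and 2.20 RPKM (-1.16) and at 18.5, 26.9, 12.0 and 3.41 RPKM (-1.10). All 3 peaked at 18 °C and were lowest at 28 °C, but under both scalings they fell short of 2-fold. The cell adhesion protein periostin (postnb) was at 57.4, 52.1, 27.8 and 12.6 RPKM (-0.89). The microfibril gene mfap2 at 7.38, 7.63, 3.04 and 2.16 RPKM (-1.09) and the growth factor tgfb3 at 18.6, 15.1, 6.92 and 5.35 RPKM (-1.02) were picked after their values were seen. The surface sialomucin cd34, found on progenitor and vascular cells, was at 30.3, 33.8, 11.9 and 8.79 RPKM (-1.44) and kept 2-fold under both scalings (-1.11 and -1.03).

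Markers of other cells were summed over the same libraries. The fibroblast list, of which 1 of 7 rows met the minimum, summed to 61.1, 54.5, 29.3 and 15.8 RPKM, and that member is postnb itself, which is also on the matrix list. The list of endothelium and pericytes (4 of 6 rows, 2 above and 2 below the median) summed to 6.75, 10.2, 8.83 and 40.0 RPKM. Its 28 °C sum came mostly from cnn1 (21.2 RPKM) and pdgfrb (10.9 RPKM). The nerve and glia list (4 of 18 rows) summed to 55.9, 56.2, 40.4 and 30.8 RPKM. Skin and other epithelium (3 of 15 rows) summed to 79.4, 99.2, 51.0 and 49.5 RPKM, mostly through the keratin krt94 at 67.6, 88.2, 43.1 and 28.2 RPKM (-1.02). Their part in the matrix result was not tested. Blood-borne cells gave little: the granulocyte and macrophage list (4 of 13 rows) summed to 25.5, 11.7, 8.83 and 39.5 RPKM, and no lymphocyte row of 17 met the minimum. The red cell list (1 of 10 rows) summed to 242.5, 211.1, 175.1 and 108.3 RPKM, nearly all of it the membrane anchor ank1, which muscle also expresses. The adipocyte list (5 of 6 rows, 2 of them set apart) summed to 47.4, 112.4, 15.0 and 52.1 RPKM, and the intestine list (2 of 14 rows) consists almost wholly of apoa4.

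Among the 15 lower genes with the largest folds, 8 not yet described had the 18 °C peak in a weaker form. The lysosomal protease ctsf was at 8.02, 32.4, 5.02 and 11.7 RPKM (-2.47). The tyrosine-degrading hgd, a liver enzyme, was at 2.77, 11.6, 1.93 and 1.94 RPKM (-2.11), and complement c4b at 4.94, 11.8, 2.34 and 3.74 RPKM (-1.94). The antimicrobial peptide gene leap2 was at 1.56, 17.7, 4.65 and 58.7 RPKM (-1.72), and among these genes it was the 1 with its highest level at 28 °C. The transketolase tktb was at 6.56, 16.5, 5.36 and 7.0 RPKM (-1.46), the glutathione transferase gstt1a at 11.53, 21.8, 7.12 and 6.04 RPKM (-1.49), ccdc141 at 3.06, 9.53, 2.24 and 4.05 RPKM (-1.70) and sccpdh at 4.95, 11.8, 3.83 and 5.94 RPKM (-1.41). Each was highest at 18 °C among 12, 18 and 23 °C, as the liver list was, and the part of liver RNA in them was not tested. Of the 127 lower genes 3 are on the liver list and 4 on the complement list. The gene leap2 is counted on both. Of 6 complement and acute phase genes not set apart 4 were lower, against 3.45% of all such rows, and 13 more of that list were set apart. The minimum and the rule for rows set apart both read the 18 °C value. There 19 of the 21 rows of this list reached 1 RPKM, against 10 at 12 °C and 10 at 23 °C. Nothing is therefore read from these counts. The phospholipid enzyme gpcpd1 had a smaller 18 °C peak, at 14.6, 17.7, 5.88 and 1.87 RPKM (-1.44), and the complement protease cfd, also secreted by fat cells, lacked it altogether, at 43.6, 31.9, 12.0 and 16.8 RPKM (-1.34).

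**Figure D5:**
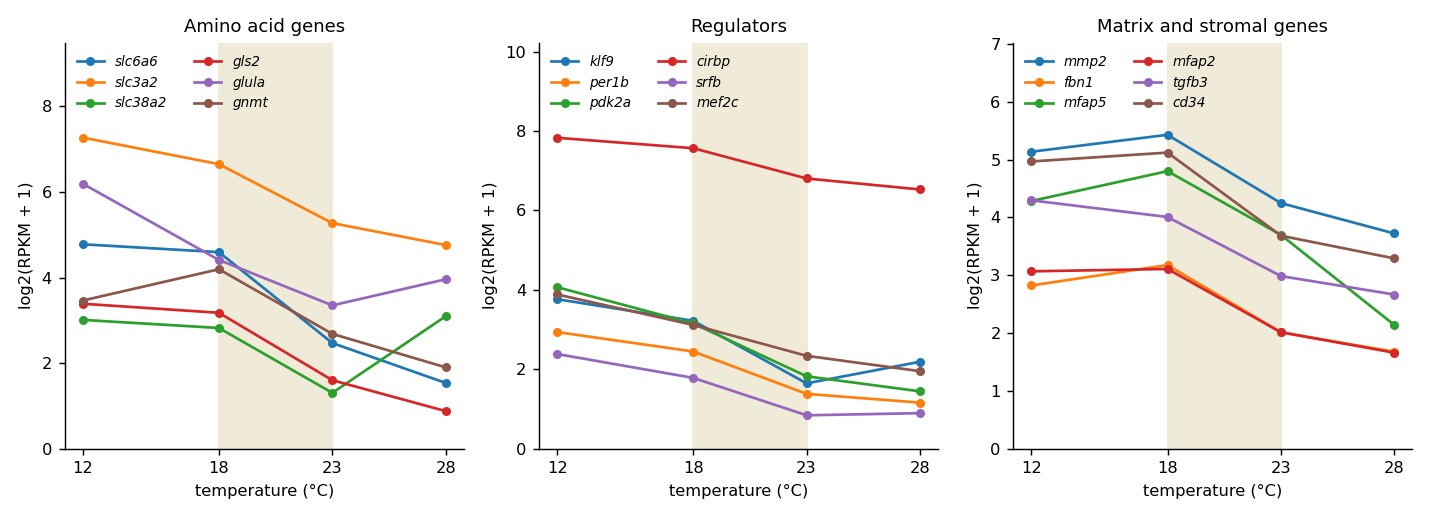
log2(RPKM + 1) at the 4 temperatures for 18 genes lower at 23 °C than at 18 °C, with the compared step shaded and 1 library at each point. Most lines run down from 12 or 18 °C to 28 °C, while slc38a2 returns to 7.56 RPKM at 28 °C. All 18 stay lower at 23 °C under both scalings, though not all by 2-fold. The shifts of 0.35 and 0.43 are too small to turn the sign of these folds.

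Further lists gave few calls. Of 15 apoptosis and p53 genes 13 lay above the median and 2 below, the exceptions being the autophagy protein tp53inp2 at 20.0, 19.7, 9.06 and 4.92 RPKM (-1.04) and the sestrin sesn1 at 52.7, 25.1, 14.1 and 6.62 RPKM (-0.79). Of 13 proteasome and ubiquitin genes 9 lay above and 4 below (10 and 3 with median ratios, 11 and 2 with the authors' constants). Of 19 genes of muscle protein breakdown 7 lay above and 12 below (8 and 11 under both scalings), and none of the last 2 lists passed 2-fold. Growth signalling had 4 above and 6 below (3 and 7 under both scalings), with the insulin signalling subunit pik3r1 at 43.2, 46.4, 24.0 and 3.39 RPKM (-0.92). Cold-inducible and splicing regulators had 11 above and 12 below (10 and 13 under both scalings). The cold-inducible RNA-binding protein cirbp was at 226.4, 188.6, 110.8 and 91.2 RPKM (-0.76), lower at each warmer step, while the splicing factor hnrnph1 was at 4.76, 5.21, 9.19 and 14.9 RPKM (0.72). Immediate early genes lay evenly, 11 above and 11 below, with egr1 at 4.24, 8.81, 4.63 and 68.0 RPKM (-0.80). Ribosome biogenesis and translation had 5 above and 6 below (4 and 7 with the authors' constants), fatty acid and lipid synthesis 2 above and 7 below (3 and 6 under both scalings), and antioxidant and metal genes 4 above and 4 below, with the selenium carrier selenop at 404.5, 374.5, 217.7 and 213.4 RPKM (-0.78). Small lists passed 2-fold nowhere: cholesterol synthesis had 2 above and 3 below, interferon response 1 and 3, cytokines and chemokines 4 and 3 (3 and 4 under both scalings), and DNA replication 3 and 4.

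The fold between the 28 °C and 12 °C libraries shares no library with the comparison, but the rule for rows set apart read the 12 °C value and removed rows that were low there against 18 °C. The counts that follow are therefore descriptions. Among the 3681 rows not set apart, 28.6% were higher and 26.3% lower by 2-fold at 28 °C than at 12 °C, in a table that was itself selected on differences from 12 °C. Of the 29 genes higher at 23 °C, 17 (58.6%) were higher and 2 (6.90%) lower at 28 °C, the former including serpinh1b, p4ha2, hsp90aa1.1, gldc, mob3a, bcl6ab, tgoln2 and arf4. Of the 127 lower genes, 45 (35.4%) were lower and 12 (9.45%) higher at 28 °C. Where all 319 rows with an 18 °C value at least 2 times both neighbours were left out, 70 lower genes remained among 3587 rows. Of these 70, 44 (62.9%) were lower and 4 (5.71%) higher at 28 °C, against 27.0% and 29.0% of the 3587 rows. Among lower genes this limit, chosen after seeing the data, removes those that were low at 12 °C against 18 °C. The larger share lower at 28 °C than at 12 °C is thus partly built in, and nothing is read from it. In the authors' deposited table the 29 higher genes fall into cluster 4 (14 genes), cluster 3 (6), cluster 6 (5) and cluster 5 (4). These clusters hold 1229, 74, 131 and 140 of the 3906 members. The 127 lower genes fall into cluster 1 (71 of its 128 rows not set apart), cluster 2 (46 of 1876), cluster 4 (7 of 1228) and cluster 7 (3 of 104). Cluster 2 was thus less frequent among the lower genes than among the 3681 rows not set apart. The clusters come from the same table and are given as a description.

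Size and naming limit what the counts carry. Of the 29 higher genes 17 have a symbol and 12 do not, 7 are listed at 0 in a library, and 15 have a mean of at least 5 RPKM. Of the 127 lower genes 67 have a symbol and 60 do not, and 62 reach that mean. The unnamed LOC109624975 is listed at 0 at 12, 18 and 28 °C and at 20.3 RPKM at 23 °C. The spread was narrowest between 1 and 2 RPKM but did not rise steadily with level. The middle 90% of rows lay from -0.75 to 0.45 between 1 and 2 RPKM and from -1.07 to 0.65 between 5 and 20 RPKM. Between 20 and 100 RPKM it lay from -0.97 to 0.63. Adding 1 RPKM to each value shrinks the folds of low genes.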

How the data were processed

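RNA was sequenced from flounder muscle at 12, 18, 23 and 28 °C, 1 library per temperature. The authors deposited RPKM values per gene, per the file headers, and their comparison of each warmer library with 12 °C. These comparison columns are headed log2, but what the authors deposited are natural log values: each is ln of an RPKM ratio shifted by a fixed amount, to within 0.00001, in 11635, 11641 and 11633 rows at 18, 23 and 28 °C, with shifts of 0.942, 1.272 and 0.910 as factors. Per the submitters' processing notes, TopHat2 and Cufflinks were used, with no versions. The genome build is not given in the sources used here, nor is the annotation. Of the table's rows 4120 bear a symbol, and of 7526 numbered IDs 5836 were found in a RefSeq table (assembly ASM2471397v2, used only for names), of which 2788 gained a symbol. Of the members 2676 have a symbol.

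The deposited RPKM values are not counts, so a whole-read test was not used, and with 1 library a side no test was run. The pseudocount was 1 RPKM, the minimum mean 1 RPKM and the call a 2-fold difference. Named genes were the 15 largest folds in each direction among named rows averaging 5 RPKM or more, above 0 in both libraries and not set apart, plus up to 4 per gene list, the 10 highest rows set apart, 3 on each side of each threshold, and genes listed at 0 in 1 library and at 5 RPKM or more in the other. Genes said to be picked after their values were seen fall outside this rule. There were 33 gene lists and 11 lists of cell markers, matched by symbol. The members and lists were chosen with earlier results of these data known. A planned search for promoter motifs was not run, because no promoter sequences were used. The rule for the calls was also run on simulated data with known folds. Without replicates the spread of real values is unknown, so that run gives no error rate for the calls reported here. Nothing is read from it. Python 3.11.15 was used with pandas 2.3.3, NumPy 2.4.6, SciPy 1.17.1 and matplotlib 3.10.9. The alternatives tried were other pseudocounts, minimums, scalings, fold limits and limits for rows set apart, and leaving out rows listed at 0.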

Additional observations from a re-analysis of the deposited data

How the results depend on the processing

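The count of genes higher at 23 °C (29, with or without the rows set apart) became 66 with a pseudocount of 0.1 RPKM, 15 with a minimum of 5 RPKM, 96 with median ratios, 129 with the authors' constants, 149 at 1.5-fold and 12 at 3-fold. The count of lower genes (352) became 178 with a minimum of 5 RPKM and 744 at 1.5-fold, and the other settings moved it by less than 1.5 times. Without the rows set apart the lower genes (127) numbered 286 and 194 with pseudocounts of 0.1 and 0.5 RPKM, 62 with a minimum of 5 RPKM, 74 with median ratios, 67 with the authors' constants, 519 at 1.5-fold, 25 at 3-fold and 70 when rows at 2 times both neighbours were set apart, a limit chosen after seeing the data. Of all calls 7.61% were higher, against 11.4% with the pseudocount of 0.1 RPKM, 24.4% with median ratios, 30.7% with the authors' constants, 16.7% at 1.5-fold and 4.69% at 3-fold. The rows set apart numbered 256, 202 and 319 at 3, 10 and 2 times. The changes at other fold limits, minimums and pseudocounts follow from how these settings are built; for the scalings, the shift of all 23 °C values is the construction. No named gene past 2-fold changed sign under the pseudocount of 0.1 RPKM or either scaling. This was fixed in advance: a pseudocount cannot turn a sign, and shifts of 0.35 and 0.43 are too small to turn such folds. List medians moved by over 0.1 in 9 of 42 lists with the smaller pseudocount and in all 42 under each scaling. No paired analysis was possible because each temperature has 1 library. With no replicate, no counts and an unknown absolute depth, neither biological spread nor counting error can be given, and low values are the least certain.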
